A study of Mus musculus with 5 samples.

Results

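The CXC chemokines followed here are the 8 genes Cxcl1, Cxcl2, Cxcl5, Cxcl9, Cxcl10, Cxcl12, Cxcl14 and Cxcl16, of 20355 gene symbols in the count tables. They were found by symbol and followed through the larger cell classes and the fibroblast states of a Drop-seq atlas of mouse colonic mesenchyme, the connective tissue under the intestinal epithelium. In Drop-seq, each cell shares a droplet with a bead whose barcode marks its mRNA, and a unique molecular identifier (UMI) lets every captured molecule be counted once. There was 1 group: freshly isolated, untreated mice of strain C57/BL6, aged 10 weeks, whose epithelium was stripped before Collagenase XI and Dispase released the remaining cells. The 5 droplet collections came from 2 biological replicates, with collections 1A and 1B from the first and 2A, 2B and 2C from the second, and the labels do not give the number of mice in a replicate.

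Chemokines are small secreted proteins that guide leukocytes through G protein-coupled receptors, and the CXC family is named for the residue that separates its first pair of cysteines. Cxcl1, Cxcl2 and Cxcl5 attract neutrophils through Cxcr2, and their transcription follows NF-kappaB in many cells. Cxcl9 and Cxcl10 are induced by interferons and attract activated T and NK cells through Cxcr3. Cxcl12 is made by stroma, retains and positions leukocytes through Cxcr4 and is also bound by the scavenging receptor Ackr3, Cxcl14 is an unusual member expressed mainly by epithelium and stroma, and Cxcl16 is made as a membrane protein that binds Cxcr6.

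Of 7935 barcodes, 6005 had at least 300 genes and at most 10% mitochondrial UMIs and were retained, 864 to 1733 per collection, with a median of 1331 UMIs and 758 genes. The retained cells of a collection held 1461337 to 2953455 UMIs, and 6 retained barcodes occurred in 2 collections. Clusters were named from marker genes, so every class below means cells with the markers of that type ("fibroblast-like" and so on). The 10 classes with at least 20 cells in both replicates were fibroblast-like (3131 cells), blood endothelial-like (576), macrophage-like (484), T, NK or innate lymphoid-like (393, called T/ILC-like), enteric glia-like (300), smooth muscle-like (241), pericyte-like (240), B-like (234), lymphatic endothelial-like (166) and dendritic-like (121). Plasma-like (42 cells), enteric neuron-like (28), cycling (27) and epithelial-like (22) clusters had fewer cells in at least 1 replicate and were not tested. Comparisons of classes below cover the 10 classes unless another is named. No cluster had the markers of neutrophils, the cells that carry Cxcr2: all 5 neutrophil markers measured were detected, with 126 UMIs in all retained cells together, but no cell held 3 of them. Of these UMIs 118 were Csf3r, which was highest in macrophage-like cells (108 CPM). S100a8, S100a9, Retnlg and Mmp8 had 4, 1, 1 and 2. The members gave 13680 UMIs (Cxcl1), 10902 (Cxcl2), 22 (Cxcl5), 279 (Cxcl9), 3331 (Cxcl10), 4510 (Cxcl12), 616 (Cxcl14) and 1662 (Cxcl16) in the retained cells. Levels are CPM, the UMIs of a gene scaled to a common total after summing the cells of a class within a biological replicate, and are compared across cells within a gene, not between genes.

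Most members lie in a pair of gene clusters on chromosome 5 (GENCODE M21 on GRCm38, the build also called mm10, to which reads were aligned). Cxcl5 (chr5:90759360-90761624), Cxcl1 (chr5:90891241-90893115) and Cxcl2 (chr5:90903871-90905938), all on the plus strand, span 147 kb. Cxcl9 (chr5:92321347-92328079) and Cxcl10 (chr5:92346638-92348889), both on the minus strand, span 27.5 kb and lie 1415 kb further along. Cxcl12 is at chr6:117168535-117181367 on the plus strand, and Cxcl14 at chr13:56288643-56296551 and Cxcl16 at chr11:70453983-70459984 are on the minus strand. Cxcl10 overlaps Art3 and Cxcl16 overlaps Zmynd15, each on the opposite strand, and the counting rule for such overlaps was not given in the sources used here.

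So that neighbouring genes can be set side by side, the sequences before 4 start sites of these clusters are shown, from base -250 to base -31 counted from the RefSeq start (GRCm38.p6, 5′ to 3′ on the gene's strand). Capitals mark matches on either strand to GGG and TTTCC with any 2 bases between them, a form of the NF-kappaB site, in Cxcl1 and Cxcl2. In Cxcl10 they mark GAAA repeated after any 2 bases, a form of the interferon-stimulated response element. RefSeq promoters were matched by symbol for 6 of the 8 members.
Cxcl1 (chr5:90890995-90891214, plus strand): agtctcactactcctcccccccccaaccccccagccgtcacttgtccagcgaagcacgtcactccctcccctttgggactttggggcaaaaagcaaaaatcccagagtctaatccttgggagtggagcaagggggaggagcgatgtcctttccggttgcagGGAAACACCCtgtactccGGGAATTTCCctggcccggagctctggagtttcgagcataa
Cxcl2 (chr5:90903649-90903868, plus strand): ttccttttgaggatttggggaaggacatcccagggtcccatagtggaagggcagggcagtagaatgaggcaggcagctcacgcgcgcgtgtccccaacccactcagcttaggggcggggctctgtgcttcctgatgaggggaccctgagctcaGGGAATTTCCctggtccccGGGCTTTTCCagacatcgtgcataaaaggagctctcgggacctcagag
Cxcl9 (chr5:92328110-92328329, minus strand): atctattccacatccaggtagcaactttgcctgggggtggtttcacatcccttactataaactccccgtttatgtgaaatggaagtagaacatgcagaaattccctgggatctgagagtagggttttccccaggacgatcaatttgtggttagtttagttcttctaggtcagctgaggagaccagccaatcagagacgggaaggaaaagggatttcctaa
Cxcl10 (chr5:92348920-92349139, minus strand): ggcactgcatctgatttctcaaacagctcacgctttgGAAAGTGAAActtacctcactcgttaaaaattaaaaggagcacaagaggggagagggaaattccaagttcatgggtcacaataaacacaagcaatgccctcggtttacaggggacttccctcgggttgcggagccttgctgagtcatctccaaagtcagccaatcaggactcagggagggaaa
Cxcl1 and Cxcl2 each held 2 matches to the NF-kappaB form, which 1.17% of 32851 promoter windows of the same length held. In Cxcl1 they covered bases -89 to -80 and -71 to -62, and in Cxcl2 bases -97 to -88 and -78 to -69. Cxcl10 held 1 match to the interferon-stimulated form at bases -213 to -204, a motif present in 2.63% of the windows, and Cxcl14 held another. TTC and GAA with any 3 bases between them, a form of the interferon-gamma-activated site found in 6.27% of the windows, was matched in Cxcl14 among the 6 promoters. None of the 3 motifs, which do not overlap one another in these windows, was matched in Cxcl9 or Cxcl12. Only these forms were searched, so a stretch without capitals can still hold a looser form of a site. The printed Cxcl10 sequence, for instance, holds GGG and TTCC with 3 bases between them, a looser form of the NF-kappaB site. How many windows hold that form was not counted. A match is a run of letters and was not tested for binding.

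Cxcl1 and Cxcl2, neighbours on the chromosome, had different main sources. Cxcl1 was high in macrophage-like, fibroblast-like, enteric glia-like and pericyte-like cells alike, whereas Cxcl2 was highest in macrophage-like cells. In replicates 1 and 2, Cxcl1 was at 1671 and 2472 CPM in macrophage-like cells, 2222 and 1904 CPM in the fibroblast-like class, 1595 and 1589 CPM in enteric glia-like cells and, for pericyte-like cells, 1188 and 963 CPM. The other 6 classes lay between 424 and 319 CPM in blood endothelial-like cells and 58.6 and 48.7 CPM in B-like cells, so both replicates of the 4 high classes were above both replicates of every other class. Macrophage-like and fibroblast-like cells overlapped and did not pass the test against each other (log2 difference -0.03 ± 0.11, adjusted p = 0.85), while fibroblast-like cells exceeded enteric glia-like cells (0.49 ± 0.12, adjusted p = 9.1e-05).

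Each class was tested against the average log level of the rest, and the log2 fold change of Cxcl1 was 2.79 ± 0.09 (± SE) in macrophage-like cells, 2.82 ± 0.08 in fibroblast-like cells, 2.27 ± 0.11 in enteric glia-like cells and 1.43 ± 0.14 in pericyte-like cells. The largest of these 4 adjusted p was 1.9e-23 (edgeR quasi-likelihood F test on the 2 biological replicates, Benjamini-Hochberg over 7012 genes). Because of their number, fibroblast-like cells held 68.5% of all retained Cxcl1 UMIs, against 15.7% in macrophage-like cells. A Cxcl1 UMI was seen in 66.7% (exact 95% interval 62.3 to 70.9%) of macrophage-like cells (median 1782 UMIs per cell), 46.0% (exact 95% interval 44.3 to 47.8%) of fibroblast-like cells (median 1287) and 7.69% (exact 95% interval 4.62 to 11.9%) of B-like cells (median 1054), whose share is given as a reference and not as an upper level for free RNA. With every cell thinned to 500 UMIs the shares were 43.4%, 32.4% and 3.60% in the same order. These intervals cover counting error only. Fibroblast markers summed to a mean of 936 CPM in B-like cells, 1405 CPM in macrophage-like, 2392 CPM in enteric glia-like, 3321 CPM in pericyte-like and 8666 CPM in smooth muscle-like cells. Free RNA may therefore differ by class, and its part in the member levels was not tested. In fibroblast-like cells the UMIs were uneven, with the 10% of cells richest in Cxcl1 holding 68.6% of them.

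Cxcl2 was at 6552 and 7584 CPM in macrophage-like cells, 1203 and 1236 CPM in enteric glia-like cells, 1031 and 598 CPM in dendritic-like cells, 521 and 840.0 CPM in T/ILC-like cells and 437 and 351 CPM in fibroblast-like cells. The 5 collections gave 6869.8, 6227, 6637, 7746 and 8318 CPM in macrophage-like cells (1A to 2C), so each collection stood above both replicates of every other class. This was a log2 fold change of 5.0 ± 0.08 in macrophage-like cells and 2.09 ± 0.12 in enteric glia-like cells (adjusted p = 1.8e-70 for the glia-like class), and macrophage-like cells exceeded enteric glia-like cells by 2.62 ± 0.12, adjusted p = 1.1e-98. Macrophage-like cells held 67.1% of the retained Cxcl2 UMIs, and 91.9% (exact 95% interval 89.1 to 94.2%) of them had at least 1, against 5.56% of B-like cells. The immediate-early and heat-shock genes took 1.5% of UMIs in macrophage-like cells, 5.07% in enteric glia-like cells, 3.42% in fibroblast-like cells and 0.615% in B-like cells, and their part in the levels of Cxcl1 and Cxcl2 was not tested.

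The 7 macrophage markers (C1qa, C1qb, C1qc, Csf1r, Mrc1, Emr1 and Fcgr3) summed to 19.2 and 73.6 CPM in enteric glia-like cells, with 3 of the 7 at 0, against 5395 and 6083 CPM in macrophage-like cells. The part of macrophage RNA in the Cxcl2 level of glia-like cells was not tested. In dendritic-like cells 1 of 121 cells held 91 of the 250 Cxcl2 UMIs, and without it the replicates were at 513 and 598 CPM. In T/ILC-like cells, 1 cell held 67 of 355. The small difference of fibroblast-like cells to the mean of the others (log2 0.41 ± 0.11, adjusted p = 0.00054, where the median over all genes was 0.17) lost its call in 2 of 19 alternatives, with log2 values between 0.08 and 0.52 and a largest adjusted p of 0.6.

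Cxcl5, the third member of the Cxcr2 group, was close to undetected. It had 22 UMIs in 17 of 6005 retained cells, of which 17 UMIs were in fibroblast-like cells (2.74 and 4.65 CPM), and no Cxcl5 row was read for collection 2B, which was counted as 0. It did not pass the filter on low counts and was not tested. Among fibroblast states, Saa3/Niacr1 and Has1/Pcolce2 cells held 7 of its UMIs each, Cd248/Stmn2 cells 3, and F3/Plau and Rbp4/Aldh1a1 cells none, where a count of 0 allows up to 5.74 and 7.59 CPM (3 counts of the state's total).

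**Figure D1:**
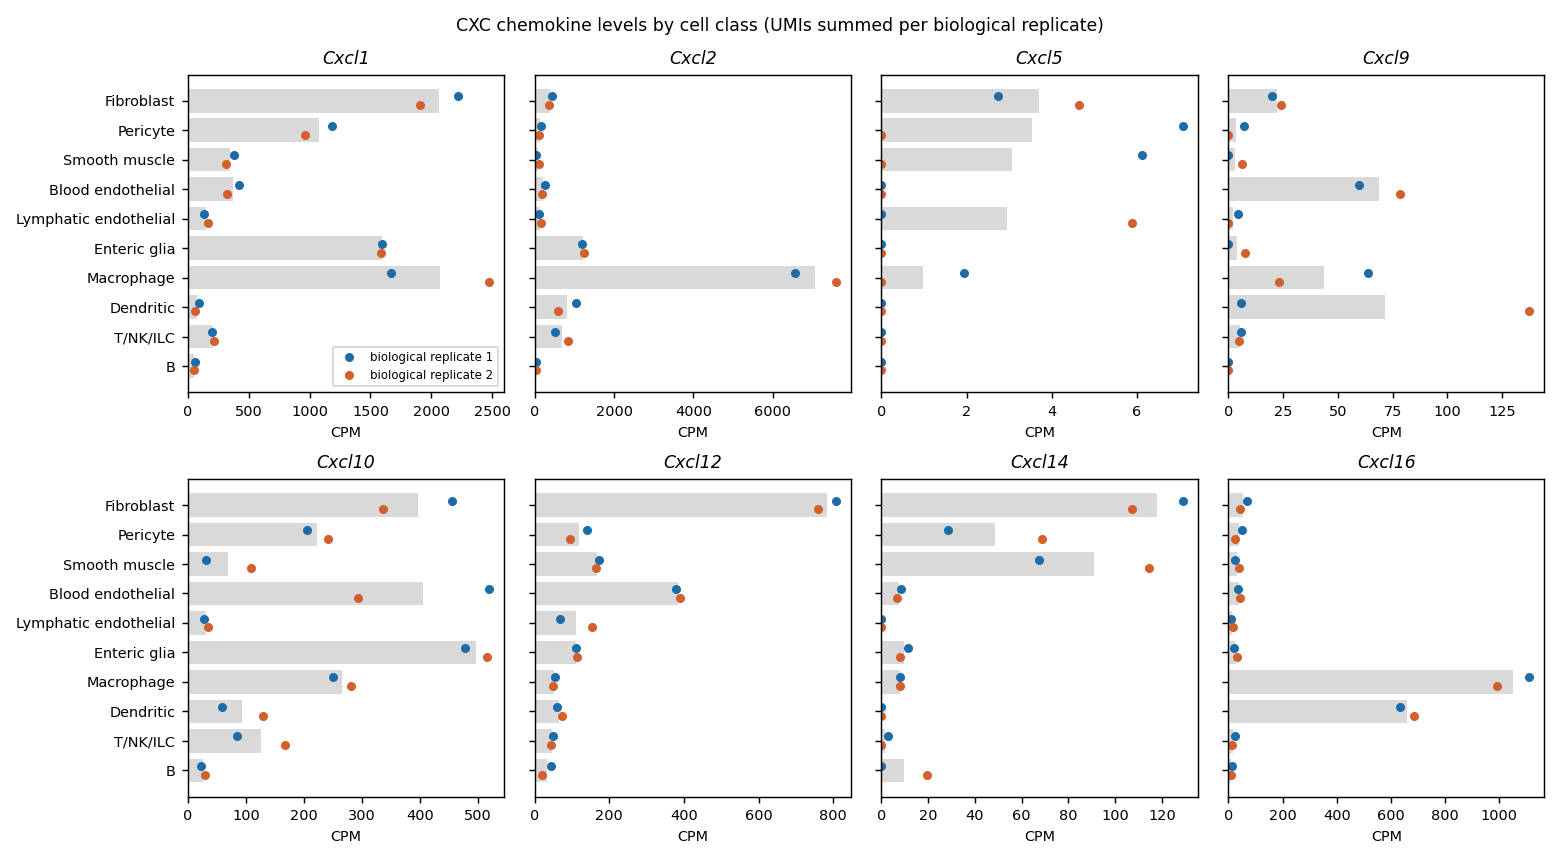
Level of each CXC chemokine (CPM, linear axis from 0) in the 10 cell classes; points are the 2 biological replicates and bars their mean. Cxcl1 is spread over macrophage-like, fibroblast-like, glia-like and pericyte-like cells, Cxcl2 and Cxcl16 peak in macrophage-like cells, Cxcl12 and Cxcl14 in fibroblast-like cells, and the dendritic-like bar of Cxcl9 comes from replicate 2 (137 CPM, against 5.86 CPM in replicate 1).

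Fibroblast-like cells were then clustered alone and named from marker pairs of known stromal states: Saa3/Niacr1 (390 cells), F3/Plau (288, with the genes of subepithelial fibroblasts), Has1/Pcolce2 (599, with Pi16, a marker of adventitial fibroblasts), Cd248/Stmn2 (1516) and Rbp4/Aldh1a1 (338, with Foxl1, a telocyte marker). Neither the members nor the listed pathway genes took part in the clustering, but related genes outside the lists were not kept out. Gbp5, a relative of listed interferon-response genes, was among the leading genes of Saa3/Niacr1 cells. Counts of pathway genes by state are therefore not independent of how the states were formed. Both larger names pooled clusters. Has1/Pcolce2 covered 2, led by Has1 and Gfpt2 (353 cells) and by Gas1 and Sfrp4 (246 cells). Cd248/Stmn2 covered 3, led by Rgs5 and Sfrp1 (744 cells), by Stmn2 and Hapln1 (250 cells), and another of 522 cells. In the Rgs5/Sfrp1 cluster 3 of the 6 markers were raised, Edil3, Serpina3n and C4b, but not Cd248, Osr1 or Stmn2. Another list, Ces1d/C1qtnf3, named no cluster. It came second in the Rgs5/Sfrp1 cluster (0.84, against 1.06) and in that of 522 cells (0.95, against 1.84). Ces1d was at 303 and 353 CPM in Cd248/Stmn2 cells and 542 and 526 CPM in Saa3/Niacr1 cells. The clusters under one name differed in some members, and their own levels are given beside the pooled ones as an alternative chosen after seeing the data. The F3/Plau cluster also had a high score for the Saa3/Niacr1 list (2.64, against 2.84 for its own), above the 2.04 of the Saa3/Niacr1 cluster itself. Bcr, Ptgs2, Ereg and Areg of that list were higher in F3/Plau cells in both replicates, and Niacr1 in Saa3/Niacr1 cells. Saa3 was at 132 and 503 CPM in Saa3/Niacr1 cells and 94.7 and 141 CPM in F3/Plau cells. The list as a whole therefore did not set these 2 states apart.

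Cxcl1 and Cxcl2 divided the pooled fibroblast states in the same order, with Saa3/Niacr1 and F3/Plau cells and 1 of the 2 Has1/Pcolce2 clusters high. The other Has1/Pcolce2 cluster lay among the Cd248/Stmn2 clusters. In replicates 1 and 2, Cxcl1 was at 5161 and 3275 CPM in Saa3/Niacr1 cells, 3204 and 3764 CPM in F3/Plau cells, 2771 and 3570.0 CPM in Has1/Pcolce2 cells, 795 and 743 CPM in Cd248/Stmn2 cells and 382 and 444 CPM in Rbp4/Aldh1a1 cells. The 3 high states overlapped and neighbours among them did not pass the test (0.27 ± 0.14, adjusted p = 0.23 between Saa3/Niacr1 and F3/Plau cells), whereas pooled Has1/Pcolce2 cells exceeded pooled Cd248/Stmn2 cells by 2.19 ± 0.14, adjusted p = 2.5e-20. The step held for 1 of the 2 clusters: Cxcl1 was at 3837 and 4943 CPM in Has1/Gfpt2 cells but 886 and 1234 CPM in Gas1/Sfrp4 cells, which overlapped Rgs5/Sfrp1 cells of the Cd248/Stmn2 name at 1063 and 1061 CPM and did not pass the test against them (log2 difference of Rgs5/Sfrp1 minus Gas1/Sfrp4 cells 0.03 ± 0.16, adjusted p = 0.95). The lowest of the 8 clusters was the Cd248/Stmn2 cluster of 522 cells, at 197 and 307 CPM. Among the 8 clusters the largest step lay between F3/Plau and Rgs5/Sfrp1 cells (1.91 ± 0.14, adjusted p = 1.8e-22). The log2 fold change against the other states ran from 1.76 ± 0.11 in Saa3/Niacr1 cells (adjusted p = 1.8e-21) to -2.74 ± 0.16 in Rbp4/Aldh1a1 cells (adjusted p = 5.4e-22, over 5677 genes).

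Cxcl2 was at 1231 and 758 CPM in Saa3/Niacr1 cells, 695 and 738 CPM in F3/Plau cells, 455 and 549.9 CPM in Has1/Pcolce2 cells, 117 and 129 CPM in Cd248/Stmn2 cells and 46.1 and 90.4 CPM in Rbp4/Aldh1a1 cells. Pooled neighbouring states did not overlap, and each step but the last passed the test, the first of them by 0.47 ± 0.16, adjusted p = 0.044. By cluster, Cxcl2 was at 633 and 742 CPM in Has1/Gfpt2 cells but 139 and 222 CPM in Gas1/Sfrp4 cells, which overlapped Stmn2/Hapln1 cells at 150.0 and 209 CPM (log2 difference -0.05 ± 0.28, adjusted p = 0.96). The first step did not pass the test among the 8 clusters (0.45 ± 0.16, adjusted p = 0.058). Cxcl2 had a log2 fold change of 2.20 ± 0.13 in Saa3/Niacr1 cells and -2.83 ± 0.25 in Rbp4/Aldh1a1 cells (adjusted p = 3.9e-21 and 1.4e-14). Over the 10 sums of state and replicate, Pearson's r between log2(CPM + 1) of Cxcl1 and Cxcl2 was 0.99, against 0.51 over the 20 sums of class and replicate, as a description of sums that share libraries. The sum of the macrophage markers was 49.0 and 49.6 CPM in Saa3/Niacr1 cells and 39.4 to 53.2 CPM (means) in the other states. The part of macrophage RNA in the order of the states was not tested. The immediate-early and heat-shock genes took 4.03% of UMIs in Saa3/Niacr1 cells and 3.11 to 3.78% in the other states, and their part in these differences was not tested.

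**Figure D2:**
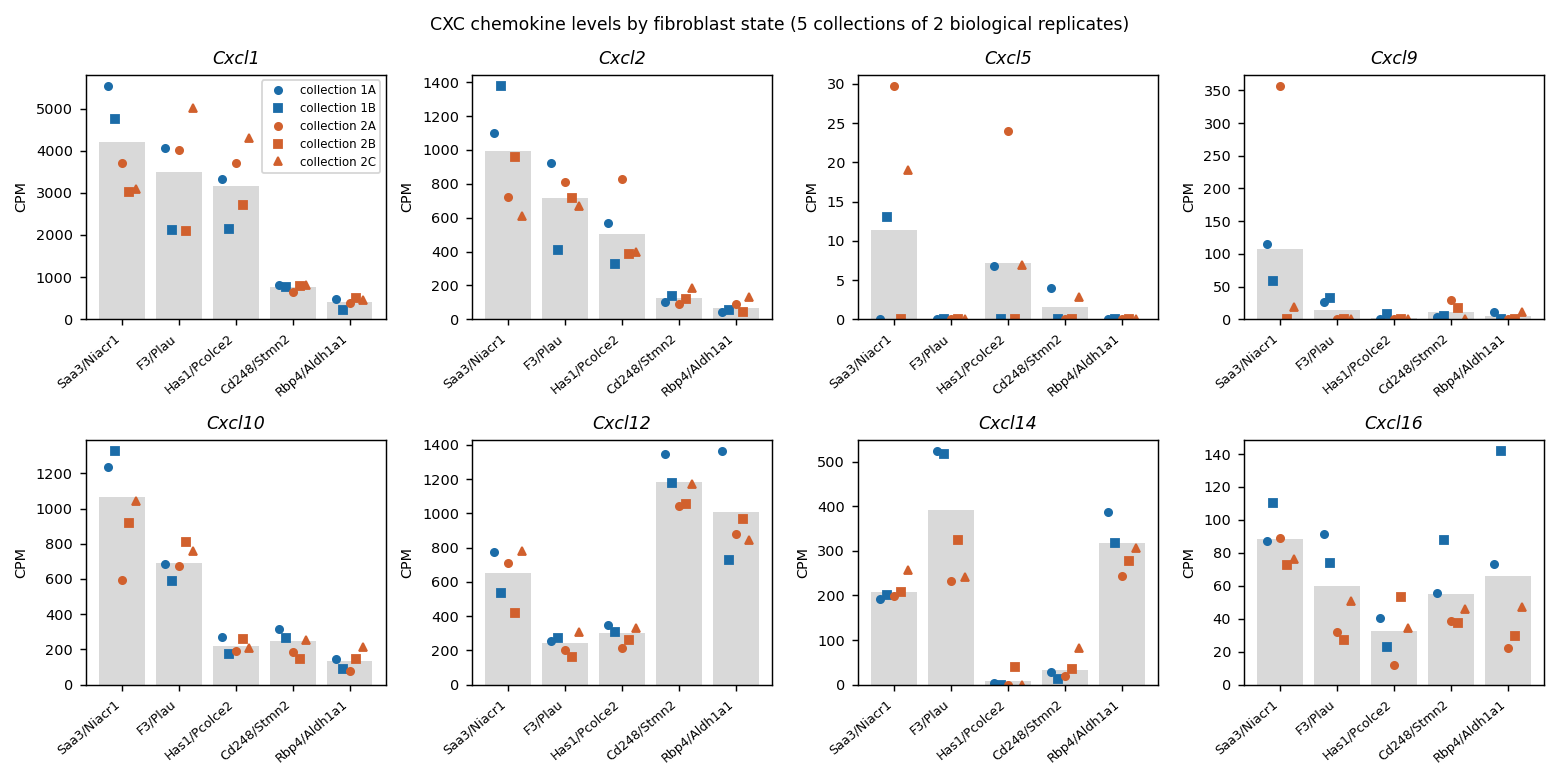
Level of each CXC chemokine (CPM, linear axis from 0) in the 5 fibroblast states; points are the 5 collections, coloured by biological replicate (1A and 1B from the first), and bars the mean of the 2 replicates. Cxcl1, Cxcl2 and Cxcl10 are highest in Saa3/Niacr1 cells and Cxcl12 in Cd248/Stmn2 cells, and the Cxcl9 point at 356 CPM is collection 2A, where 1 cell held 36 of the UMIs.

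Within the macrophage-like class, the subcluster with the markers of resident macrophages had the highest Cxcl1 and Cxcl2. This subcluster (227 cells, with Mrc1, F13a1, Lyve1, Folr2 and Cd163 raised) was compared with subclusters that had no set of markers raised and are called by their leading genes, Lyz1/Il1b (110 cells) and Cd72/Tmem37 (147 cells). Cxcl1 was at 2930.4 and 3440.0 CPM in the resident-like cells, 1103 and 1836 CPM in Lyz1/Il1b cells and 1161 and 1094 CPM in Cd72/Tmem37 cells. Cxcl2 was at 9742 and 9686 CPM in the resident-like cells, 5525 and 6210.0 CPM in Lyz1/Il1b cells and 4379 and 4577 CPM in Cd72/Tmem37 cells. The resident-like replicates lay above all others for both genes, with log2 fold changes of 1.28 ± 0.12 for Cxcl1 (adjusted p = 1.3e-12) and 0.89 ± 0.09 for Cxcl2 (adjusted p = 1.1e-11, over 3005 genes). Of 4 members tested there, these 2 were called higher, beside 10.7% of all genes, and Cxcl16 lower, beside 8.42%. In Lyz1/Il1b cells Cxcl10 was called higher (350.1 and 404 CPM) and Cxcl1 lower, beside 7.55% and 6.99% of all genes. In Cd72/Tmem37 cells none was higher and Cxcl1 and Cxcl2 were lower, beside 0.832% and 0.699%. The immediate-early and heat-shock share was 1.83% in the resident-like cells and 1.29% in each of the others, and its part was not tested. After thinning to 500 UMIs, 89.1% of resident-like cells, 67.9% of Lyz1/Il1b cells and 65.5% of Cd72/Tmem37 cells had a Cxcl2 UMI. Fibroblast markers summed to 2164 and 1849.9 CPM in resident-like cells, 822 and 1369 CPM in Lyz1/Il1b cells and 826 and 1247 CPM in Cd72/Tmem37 cells, all 8 markers being detected in each. The median depth was 1670.0 UMIs in resident-like cells, 3487 in Lyz1/Il1b cells and 1165 in Cd72/Tmem37 cells. The part of these markers and of depth in the Cxcl1 and Cxcl2 differences was not tested.

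Cxcl10 had stromal, glial and vascular sources of like level. It was at 477 and 515 CPM in enteric glia-like cells, 518 and 293 CPM in blood endothelial-like cells, 455 and 336 CPM in fibroblast-like cells and a mean of 266 ± 22.1 CPM (SD, n = 2) in macrophage-like cells, against 22.6 and 29.2 CPM in B-like cells. The first 3 overlapped and neighbours among them did not pass the test (0.27 ± 0.20, adjusted p = 0.32 between glia-like and blood endothelial-like cells). The log2 fold change against the other classes was 2.12 ± 0.18 in glia-like, 1.82 ± 0.16 in blood endothelial-like, 1.89 ± 0.15 in fibroblast-like and 1.21 ± 0.18 in macrophage-like cells, with adjusted p from 2.9e-37 to 4.4e-11. Cxcl10 was lower than the mean of the others in smooth muscle-like, lymphatic endothelial-like and B-like cells, at 27.1 and 35.3 CPM in lymphatic endothelial-like cells. A UMI was seen in 22.3% (exact 95% interval 17.7 to 27.5%) of glia-like cells (median 1528 UMIs per cell) and 3.42% (exact 95% interval 1.49 to 6.63%) of B-like cells. Plasma-like and cycling cells, too few to test, also held Cxcl10. Plasma-like cells (median 3407 UMIs per cell) had 69 UMIs in 20 of 42 cells, and without the richest cell were at 442 and 366 CPM. Cycling cells had 40 UMIs in 11 of 27 cells, at 1068 and 288 CPM without the richest cell.

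Cxcl9 was rare and rested on few cells. Its 279 retained UMIs lay in 82 of 6005 cells, with 37.6% in blood endothelial-like, 36.2% in fibroblast-like and 16.1% in macrophage-like cells. It was at 59.6 and 78.1 CPM in blood endothelial-like cells, 64.0 and 23.1 CPM in macrophage-like cells and 20.1 and 24.1 CPM in fibroblast-like cells, and the adjusted p for each against the others was 1.4e-19, 2.5e-09 and 8.6e-05. The highest mean was that of dendritic-like cells, from 5.86 and 137 CPM, because 1 cell of replicate 2 held 15 of their 18 UMIs. In fibroblast-like cells 1 cell of replicate 2 held 36 of 101 UMIs, and without it that replicate was at 8.88 CPM. Without the cell richest in Cxcl9 in each class, the dendritic-like call was lost (adjusted p = 0.15) and the blood endothelial-like call was kept (adjusted p = 1.6e-21). No fold change is given where B-like cells had no Cxcl9 UMI, which allows up to 9.25 CPM.

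Among fibroblast states, both interferon-inducible members were highest in Saa3/Niacr1 cells. Cxcl10 was at 1276 and 854 CPM in Saa3/Niacr1 cells, 644 and 742 CPM in F3/Plau cells, 294 and 195 CPM in Cd248/Stmn2 cells, 225 and 219 CPM in Has1/Pcolce2 cells and 125 and 144 CPM in Rbp4/Aldh1a1 cells. Saa3/Niacr1 cells did not overlap with the next state and exceeded it by 0.60 ± 0.16, adjusted p = 0.0046. Against the other states the difference was log2 2.12 ± 0.12 in Saa3/Niacr1 cells and 1.37 ± 0.14 in F3/Plau cells (adjusted p = 6.3e-22 and 1.4e-12). Pooled Has1/Pcolce2 cells were low in Cxcl10, at 231 and 251 CPM in Has1/Gfpt2 cells and 214 and 164 CPM in Gas1/Sfrp4 cells (-0.79 ± 0.15, adjusted p = 2e-05), a direction that turned to 0.07 when up to 20% mitochondrial UMIs were allowed.

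Cxcl9 was at 88.8 and 126 CPM in Saa3/Niacr1 cells and at most 29.1 CPM in a replicate of any other state (log2 fold change 4.14 ± 0.42, adjusted p = 2.7e-12). These were 67 UMIs in 11 of 390 cells, and 1 cell of collection 2A held 36 of them. Without it the replicates were at 88.8 and 6.68 CPM, so the level of replicate 2 came from that cell. When the richest cell of each state was left out, Cxcl9 no longer passed the filter on low counts and had no test. Of the 5 Saa3/Niacr1 cells that kept a Cxcl9 UMI after thinning to 500 UMIs, 4 also had Cxcl10, against 24.3% of the other 374 cells of that state. In blood endothelial-like cells it was 6 of 9 cells with Cxcl9, against 8.18% of 550 cells without.

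Blood endothelial-like cells divided into 4 subclusters in which the highest Cxcl9 and the highest Cxcl12 lay apart. They were a Selp/Madcam1 subcluster (112 cells, with 4 of 6 venous markers raised) and 3 unnamed ones, called by leading genes Lars2/Rbp7 (179 cells), Hba-a2/Ifit1 (82 cells) and Enpp6/Dpysl3 (203 cells). Cxcl10 was at 699 and 470.1 CPM in Selp/Madcam1 cells, 994 and 153 CPM in Hba-a2/Ifit1 cells, 124 and 191 CPM in Enpp6/Dpysl3 cells and 100.5 and 101 CPM in Lars2/Rbp7 cells. The Selp/Madcam1 level was 1.36 ± 0.18 above the mean of the others on the log2 scale (adjusted p = 5.4e-09, over 3224 genes). The Hba-a2/Ifit1 subcluster was called higher too (1.63 ± 0.22), but its replicates were far apart, and collections 1A to 2C gave 1459, 519, 146, 0 and 212 CPM. In it 1 cell of replicate 1 held 74 of 150 Cxcl10 UMIs, and without it the replicates were at 497 and 153 CPM. Cxcl9 was at 87.4 and 137 CPM in Selp/Madcam1 cells and had no UMI in the 179 Lars2/Rbp7 cells, where a count of 0 allows up to 8.63 CPM (adjusted p = 1.6e-05 for the higher and 6.5e-06 for the lower level).

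Cxcl12 was highest where Cxcl9 was not detected and lowest in Selp/Madcam1 cells, at 938 and 915 CPM in Lars2/Rbp7 cells, 327 and 327 CPM in Hba-a2/Ifit1 cells, 266 and 246 CPM in Enpp6/Dpysl3 cells and 181 and 207 CPM in Selp/Madcam1 cells. All 5 collections of Lars2/Rbp7 cells, at 946, 931, 952, 792 and 991 CPM, lay above both replicates of the other subclusters (log2 fold change 1.99 ± 0.16, adjusted p = 9.8e-21). Of 5 members tested in these subclusters, 2 were higher and Cxcl12 lower in Selp/Madcam1 cells, beside 3.07% and 2.79% of all genes. In Lars2/Rbp7 cells 1 was higher and Cxcl9 and Cxcl10 were lower, beside 8.75% and 6.82%. Hba-a2/Ifit1 cells were higher for Cxcl10 and lower for none, beside 5.15% and 2.51%, and Enpp6/Dpysl3 cells higher for none and lower for Cxcl10, beside 2.26% and 1.86%. The arterial markers Gja4 and Sema3g were at 147 and 97.8 CPM in Lars2/Rbp7 cells, against 35.7 to 68.5 and 15.8 to 39.8 CPM elsewhere, but the arterial list as a whole did not reach the level set for a name. Cell depth and quality moved with these groups: the median was 5193 UMIs in Selp/Madcam1 cells and 1384 to 1974 in the others, and Lars2/Rbp7 cells had the highest mitochondrial share (median 6.26%) and immediate-early share (3.84%). The 6 pericyte markers summed to 581 and 333 CPM in Selp/Madcam1 cells, with 1 at 0, and to means of 98.2 to 141 CPM in the other subclusters, with 2 or 3 at 0. The part of depth, quality and pericyte RNA in the differences was not tested. The 8 fibroblast markers summed to 1473 and 1211 CPM in Lars2/Rbp7 cells, against 31991 and 29783 CPM in fibroblast-like cells.

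**Figure D3:**
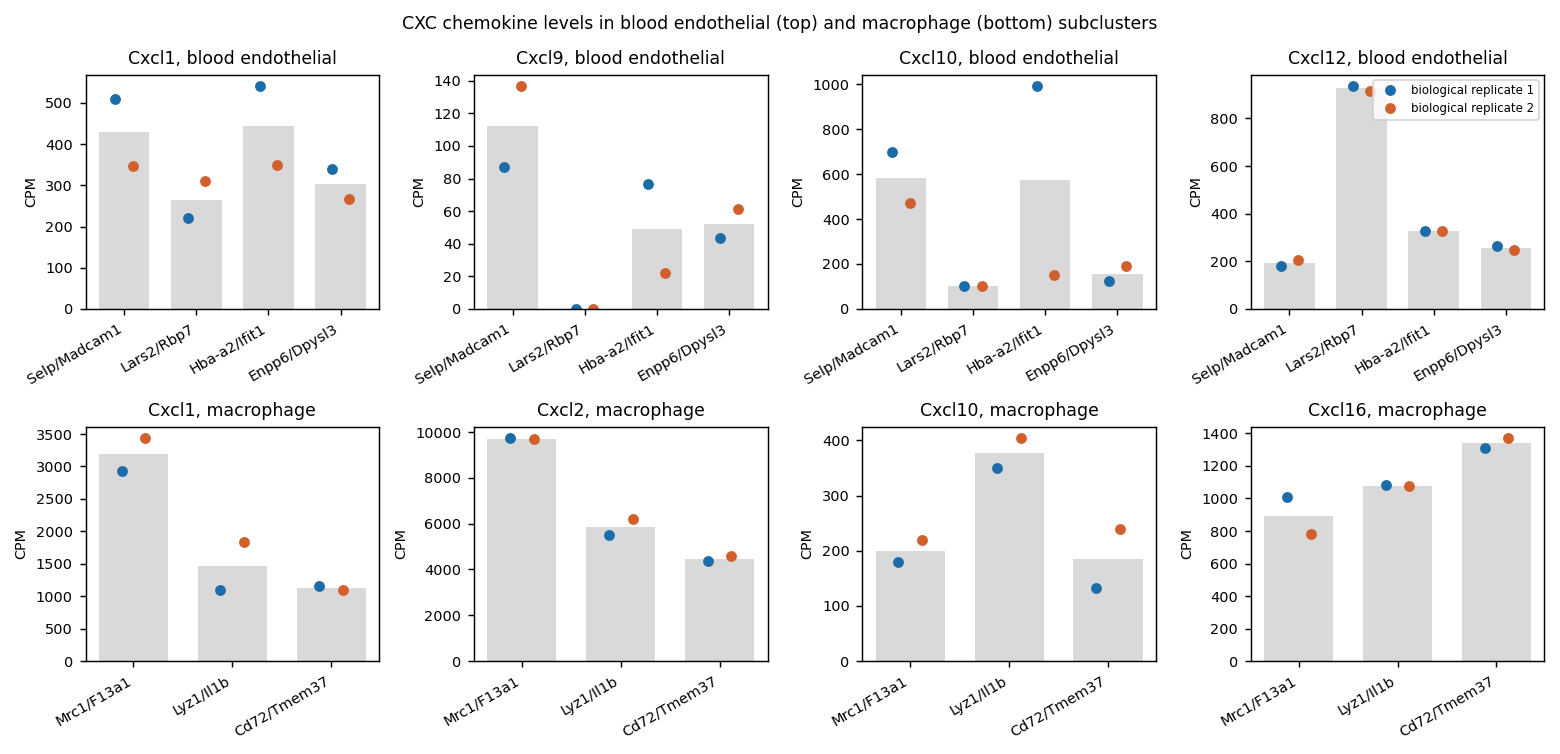
Levels (CPM, linear axis from 0) of 4 members in the blood endothelial-like subclusters (top row) and 4 in the macrophage-like subclusters (bottom row); points are the 2 biological replicates and bars their mean. Cxcl12 peaks in the Lars2/Rbp7 subcluster, where Cxcl9 has no UMI, and Cxcl1 and Cxcl2 peak in the Mrc1/F13a1 subcluster.

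Cxcl12, the stromal ligand of Cxcr4, was a fibroblast and endothelial gene. It was at 806 and 759.6 CPM in the fibroblast-like class, 379 and 389 CPM in blood endothelial-like cells, 171 and 165 CPM in smooth muscle-like cells, 141 and 94.6 CPM for the pericyte-like class and 54.3 and 50.1 CPM in macrophage-like cells. Fibroblast-like cells did not overlap with any other class and exceeded blood endothelial-like cells by 1.14 ± 0.18, adjusted p = 3.3e-09, and these in turn exceeded smooth muscle-like cells by 1.32 ± 0.26, adjusted p = 2.8e-06. The log2 fold change against the other classes was 3.28 ± 0.13 in fibroblast-like cells and 2.01 ± 0.15 in blood endothelial-like cells (adjusted p = 6.2e-135 and 1.2e-37). Fibroblast-like cells held 79.0% of its UMIs, and 53.6% (exact 95% interval 51.9 to 55.4%) of them had one, against 4.70% of B-like cells. Its UMIs were more evenly spread than those of Cxcl1, with 40.6% in the richest 10% of fibroblast-like cells.

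Across the pooled fibroblast states Cxcl12 broadly ran against Cxcl1, but not in every cluster. It was at 1276 and 1088 CPM in Cd248/Stmn2 cells, 1125 and 892 CPM in Rbp4/Aldh1a1 cells, 661 and 642 CPM in Saa3/Niacr1 cells, 331 and 266 CPM in Has1/Pcolce2 cells and 262 and 222 CPM in F3/Plau cells. The Cd248/Stmn2 clusters differed, with 1450.4 and 1291 CPM in Rgs5/Sfrp1 cells, 1385 and 1190.3 CPM in the cluster of 522 cells and 749.8 and 594 CPM in Stmn2/Hapln1 cells, which overlapped Saa3/Niacr1 cells (log2 difference -0.14 ± 0.16, adjusted p = 0.65) and were below Rbp4/Aldh1a1 cells (Rbp4/Aldh1a1 minus Stmn2/Hapln1 0.49 ± 0.16, adjusted p = 0.023). Pooled Cd248/Stmn2 cells overlapped Rbp4/Aldh1a1 cells and did not pass the test against them (0.29 ± 0.13, adjusted p = 0.19), and the clear step lay between Saa3/Niacr1 and Has1/Pcolce2 cells (1.20 ± 0.15, adjusted p = 2.8e-09). The log2 fold change was 1.20 ± 0.10 in Cd248/Stmn2 cells, 0.84 ± 0.12 in Rbp4/Aldh1a1 cells, -1.09 ± 0.13 in Has1/Pcolce2 cells and -1.37 ± 0.15 in F3/Plau cells, with adjusted p of at most 7.7e-08. The call in Saa3/Niacr1 cells (0.41 ± 0.12, adjusted p = 0.012) was lost in 9 of 20 alternatives and turned lower in 2 others, with values from -0.36 to 0.56. Pearson's r between Cxcl12 and Cxcl1 over the 10 sums was -0.76, as a description. Gas1/Sfrp4 cells were low in both genes. Their mean Cxcl1 (1060 CPM) was like that of Rgs5/Sfrp1 cells (1062 CPM). Their mean Cxcl12 (358 CPM) was near that of Has1/Gfpt2 cells (265 CPM, log2 difference 0.25 ± 0.20, adjusted p = 0.43). Saa3/Niacr1 cells, with the highest pooled Cxcl1, were intermediate in Cxcl12.

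Cxcl14 was highest in stromal and contractile classes. It was at 129 and 107 CPM in the fibroblast-like class, 67.3 and 114 CPM in smooth muscle-like cells and, for pericyte-like cells, 28.3 and 68.8 CPM, and the remaining 7 classes had at most 19.5 CPM in a replicate. Each of the 3 was called higher (adjusted p = 3.6e-63, 3.6e-13 and 0.00036), with no fold change given because dendritic-like and lymphatic endothelial-like cells had no UMI, which allows up to 10.2 and 7.66 CPM. Smooth muscle-like cells rested on 29 UMIs and pericyte-like cells on 12, and neighbours among the 3 did not pass the test (0.62 ± 0.33, adjusted p = 0.2 between fibroblast-like and smooth muscle-like cells). The fibroblast markers summed to 7773 and 9559 CPM in smooth muscle-like cells, 3400.3 and 3241 CPM for the pericyte-like class and 31991 and 29783 CPM in fibroblast-like cells, and their part in these levels was not tested.

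Cxcl14 differed widely across fibroblast states. It was at 521 and 262 CPM in F3/Plau cells, 362 and 275 CPM in Rbp4/Aldh1a1 cells, 196 and 222 CPM in Saa3/Niacr1 cells, 21.6 and 44.1 CPM in Cd248/Stmn2 cells and 1.80 and 12.99 CPM in Has1/Pcolce2 cells. Collections 1A to 2C gave 523, 517, 232, 324 and 241 CPM in F3/Plau cells, so that both collections of replicate 1 were higher there than the 3 of replicate 2. The states fell into a high group of 3 and a low group of 2, separated by 2.82 ± 0.27, adjusted p = 4e-13 between Saa3/Niacr1 and Cd248/Stmn2 cells. Relative to the other states Cxcl14 differed by log2 2.77 ± 0.21 in F3/Plau cells, 2.03 ± 0.24 in Rbp4/Aldh1a1 cells and -4.55 ± 0.38 in Has1/Pcolce2 cells (largest adjusted p 4.5e-10). Of the 7 Cxcl14 UMIs in 599 Has1/Pcolce2 cells, 1 lay in Has1/Gfpt2 cells and 6 in Gas1/Sfrp4 cells.

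Cxcl16, the membrane-bound ligand of Cxcr6, was a gene of macrophage-like and dendritic-like cells. It was at 1110.5 and 990.4 CPM in macrophage-like cells and 632 and 687 CPM in dendritic-like cells, and the remaining 8 classes had at most 68.0 CPM in a replicate. Macrophage-like cells exceeded dendritic-like cells by 0.83 ± 0.21, adjusted p = 0.00046, and both were above the mean of the others (log2 fold change 4.98 ± 0.15 and 4.06 ± 0.21, adjusted p = 1.6e-233 and 1.2e-82). A UMI was seen in 73.8% (exact 95% interval 69.6 to 77.6%) of macrophage-like cells, 60.3% (exact 95% interval 51.0 to 69.1%) of dendritic-like cells (median 2063 UMIs per cell) and 1.71% (exact 95% interval 0.468 to 4.32%) of B-like cells. The macrophage markers summed to 169.8 and 202 CPM in dendritic-like cells, with all 7 detected, against 5395 and 6083 CPM in macrophage-like cells. Within the macrophage-like class, Cxcl16 was at 1009 and 779 CPM in resident-like cells, 1083 and 1076 CPM in Lyz1/Il1b cells and 1310.0 and 1372 CPM in Cd72/Tmem37 cells, and was called lower in the resident-like cells (-0.48 ± 0.13, adjusted p = 0.0066).

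In fibroblasts Cxcl16 was low, at 98.0 and 79.4 CPM in Saa3/Niacr1 cells and 32.4 and 32.5 CPM in Has1/Pcolce2 cells. Replicate 1 of F3/Plau and of Rbp4/Aldh1a1 cells, at 83.7 and 98.7 CPM, reached the Saa3/Niacr1 level, while replicate 2, at 36.3 and 32.9 CPM, did not. It was higher in Saa3/Niacr1 cells (0.96 ± 0.26, adjusted p = 0.0074), a call lost in 4 of 20 alternatives (adjusted p up to 0.18), among them without collection 2A (0.79, adjusted p = 0.058).

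Seen by class, fibroblast-like cells were above the mean of the others for 6 of the 7 members tested and below for none, beside 33.1% of all genes called higher and 12.6% lower there. Macrophage-like cells were higher for 5 and lower for 1 (Cxcl12), beside 27.7% and 15.8% of all genes. Enteric glia-like and blood endothelial-like cells were each higher for 3 and lower for 1, beside 23.8% and 13.1% in the glia-like class and 29.5% and 14.9% in the endothelial-like one. The glia-like lower call, of Cxcl16, was lost in 8 of 19 alternatives. B-like cells were lower for 6 and higher for none, beside 21% higher and 17.3% lower (the Cxcl9 call was lost in 12 of 17 alternatives), and lymphatic endothelial-like cells lower for 4 and higher for none, beside 20.6% higher and 13.1% lower. Dendritic-like cells were higher for 3 and lower for 2, beside 18% and 11.2%. Of these calls, that of Cxcl9 was lost without the richest cell and that of Cxcl12 in 6 of 19 alternatives. Pericyte-like cells were higher for 2 and lower for 1, beside 13.8% and 7.49%, smooth muscle-like cells higher for 1 and lower for 2, beside 18.4% and 10.6%, and T/ILC-like cells higher for 1 and lower for 3, beside 23.1% and 16%. By state, Saa3/Niacr1 cells were higher for all 7 tested, beside 9.81% of genes called higher and 1.43% lower there. Of these 7 calls, that of Cxcl12 was lost in 9 of 20 alternatives and turned direction in 2 others. The Cxcl16 call was lost in 4 of 20, and 1 cell held 36 of the 67 Cxcl9 UMIs. F3/Plau cells were higher for 4 and lower for Cxcl12, beside 17.4% and 9.05%, and Has1/Pcolce2 cells higher for 2 and lower for 5, beside 20.7% and 15.1%. Cd248/Stmn2 cells were higher for Cxcl12 and lower for 4, beside 14.3% and 15.9%, and Rbp4/Aldh1a1 cells higher for Cxcl12 and Cxcl14 and lower for 3, beside 12% and 12.8%. A member that entered the test through the class or state where it was high had to differ, so these counts describe where the members lay.

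Genes that answer to NF-kappaB had their lowest median in Rbp4/Aldh1a1 cells, where Cxcl1 was also lowest among pooled states. Their medians were high and close in F3/Plau and Saa3/Niacr1 cells, which were not tested against each other for these genes. Of 10 such genes, 9 were higher and 0 lower in F3/Plau cells (median log2 fold change 1.51), 7 and 0 in Saa3/Niacr1 cells (1.39), 3 and 1 in Has1/Pcolce2 cells (0.28), 0 and 6 in Cd248/Stmn2 cells (-0.98) and 0 and 10 in Rbp4/Aldh1a1 cells (-1.80), where the median over all genes was 0.01 to 0.04. The gene not called in F3/Plau cells was Il6. Of all genes, 17.4% were called higher and 9.05% lower in F3/Plau cells, and 9.81% and 1.43% in Saa3/Niacr1 cells. These shares were 20.7% and 15.1% in Has1/Pcolce2 cells, 14.3% and 15.9% in Cd248/Stmn2 cells and 12% and 12.8% in Rbp4/Aldh1a1 cells. Nfkbia, the inhibitor that restrains NF-kappaB, was at 7348 and 7411 CPM in F3/Plau cells, 6584 and 5095 CPM in Saa3/Niacr1 cells, 2548 and 2994 CPM in Has1/Pcolce2 cells, 1648 and 1216 CPM in Cd248/Stmn2 cells and 921 and 551 CPM in Rbp4/Aldh1a1 cells. Tnfaip3, another feedback inhibitor, had log2 fold changes of 2.28 ± 0.16 in F3/Plau cells and 1.53 ± 0.17 in Saa3/Niacr1 cells. In pooled Has1/Pcolce2 cells, Nfkbia (0.16 ± 0.10, adjusted p = 0.24) and Tnfaip3 (-0.03 ± 0.19, adjusted p = 0.94) did not pass the test, while the cytokine gene Il6 was at 236 and 338 CPM there, higher than in the other states (2.6 ± 0.19, adjusted p = 1e-18).

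Of 15 listed interferon-response genes 10 were tested, and in Saa3/Niacr1 cells, the state with most Cxcl10, 7 were higher and 0 lower (median 1.07), against 2 and 2 in F3/Plau cells (-0.01), 1 and 4 in Has1/Pcolce2 cells (-0.51), 1 and 3 in Cd248/Stmn2 cells (-0.42) and 1 and 1 in Rbp4/Aldh1a1 cells (-0.26). The shares of all genes called in each state are those given with the NF-kappaB genes, 9.81% higher and 1.43% lower in Saa3/Niacr1 cells. Iigp1, an interferon-inducible GTPase, was at 294 and 149 CPM in Saa3/Niacr1 cells and 25.5 and 8.07 CPM in F3/Plau cells (log2 fold change 2.62 ± 0.21, adjusted p = 5.8e-16, and -1.98 ± 0.41, adjusted p = 9e-05). Irf1, a transcription factor induced by both interferon and NF-kappaB, was high in both, at 1035 and 890.0 CPM in Saa3/Niacr1 cells, 1045 and 1089 CPM in F3/Plau cells and 236 to 355 CPM in the replicates of the other states. Among classes, blood endothelial-like cells were higher for 14 of 15 interferon-response genes, beside 29.5% of all genes, and enteric glia-like cells for 12 of 15, beside 23.8%. Fibroblast-like cells, which overlapped in Cxcl10 with blood endothelial-like cells (log2 difference of blood endothelial-like minus fibroblast-like cells -0.06 ± 0.18, adjusted p = 0.81), were higher for 1 (Irf1) and lower for 5, beside 33.1% and 12.6% of all genes. Among the endothelial-like subclusters, 13 of 15 were higher in the Hba-a2/Ifit1 cells, beside 5.15% of all genes. Ifit1 is one of the 15, and the related genes Ifit2, Rsad2, Oasl1 and Usp18, also leading genes there, were not kept out of the clustering. That count therefore describes how the subcluster was formed and is no separate result. In the Selp/Madcam1 cells, which also had high Cxcl10, 0 of the 15 were higher and 5 lower, beside 3.07% and 2.79%.

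**Figure D4:**
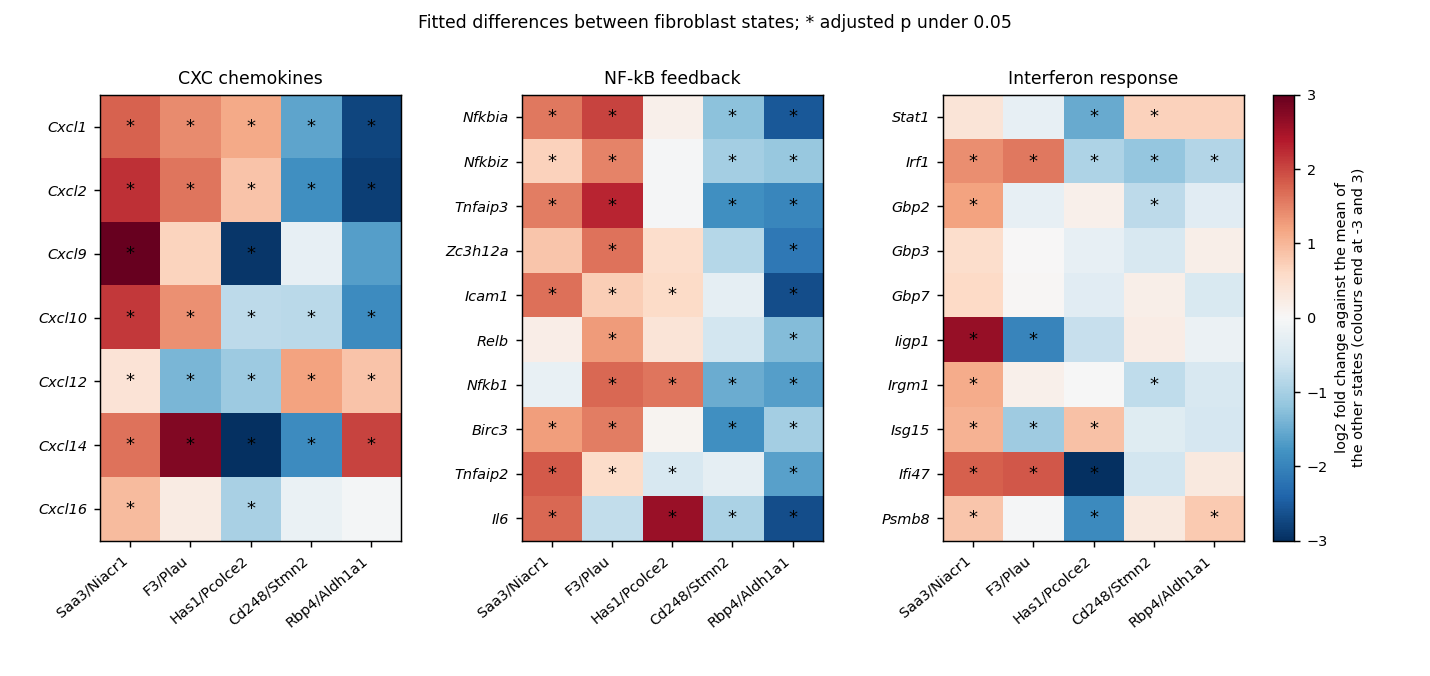
Fitted log2 fold change of each tested CXC chemokine, NF-kappaB feedback gene and interferon-response gene (rows) in the 5 fibroblast states (columns), each against the mean of the other states; red is higher, blue lower, and a star marks an adjusted p under 0.05. The Saa3/Niacr1 column is raised in all 3 blocks, and the F3/Plau column in the first and second but mixed in the third.

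By level, the receptors Cxcr4, Cxcr5 and Cxcr6 were highest in leukocyte classes, and Darc and Ackr3 in endothelial-like classes. Cxcr4, the receptor of Cxcl12, was at 359 and 399 CPM in macrophage-like cells, 158 and 121 CPM in dendritic-like cells and 117 and 78.0 CPM in B-like cells, all called higher (adjusted p of at most 3.1e-11). Ackr3, which takes up Cxcl12, was at 293 and 412 CPM in lymphatic endothelial-like cells (4.07 ± 0.25, adjusted p = 1.1e-56) and 83.6 and 121 CPM in fibroblast-like cells (2.39 ± 0.22, adjusted p = 3.6e-27). Cxcr6, the receptor of Cxcl16, was at 171 and 187 CPM in T/ILC-like cells and at most 8.08 CPM in a replicate of the other tested classes (adjusted p = 2.5e-56). Cxcr3 was not tested but had 23 of its 26 UMIs in T/ILC-like cells. Cxcr2, the receptor of Cxcl1, Cxcl2 and Cxcl5, had 7 UMIs in all.

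Cxcr5 was at 149 and 87.7 CPM in B-like cells, and its ligand Cxcl13 at 87.7 and 73.1 CPM in fibroblast-like cells, highest in the Cd248/Stmn2 state (126 and 116 CPM, log2 fold change 1.20 ± 0.19, adjusted p = 9.1e-07). The chemokine-binding receptor Darc (now Ackr1), which carries chemokines across venules, was at 127 and 79.8 CPM in blood endothelial-like cells. Of 6 receptors tested in classes, 3 were higher in fibroblast-like cells (Ackr3, Darc and Cx3cr1), though Darc and Cx3cr1 were at 8.22 and 5.07 and at 2.28 and 9.29 CPM there, and 2 each in macrophage-like, blood endothelial-like and B-like cells. Of all genes, 33.1%, 27.7%, 29.5% and 21% were called higher in these 4 classes, in the same order, so the counts of receptors say little by themselves. Of the other CXC ligands, Cxcl3 and Pf4 were called higher in macrophage-like cells, at 56.2 and 63.6 and at 699.6 and 938 CPM. Among the proteases that trim or shed chemokines, Adam17 was highest in macrophage-like cells (231 and 204 CPM), Dpp4 in dendritic-like cells (70.3 and 137 CPM) and Mmp2 in fibroblast-like cells (659 and 625 CPM).

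**Figure D5:**
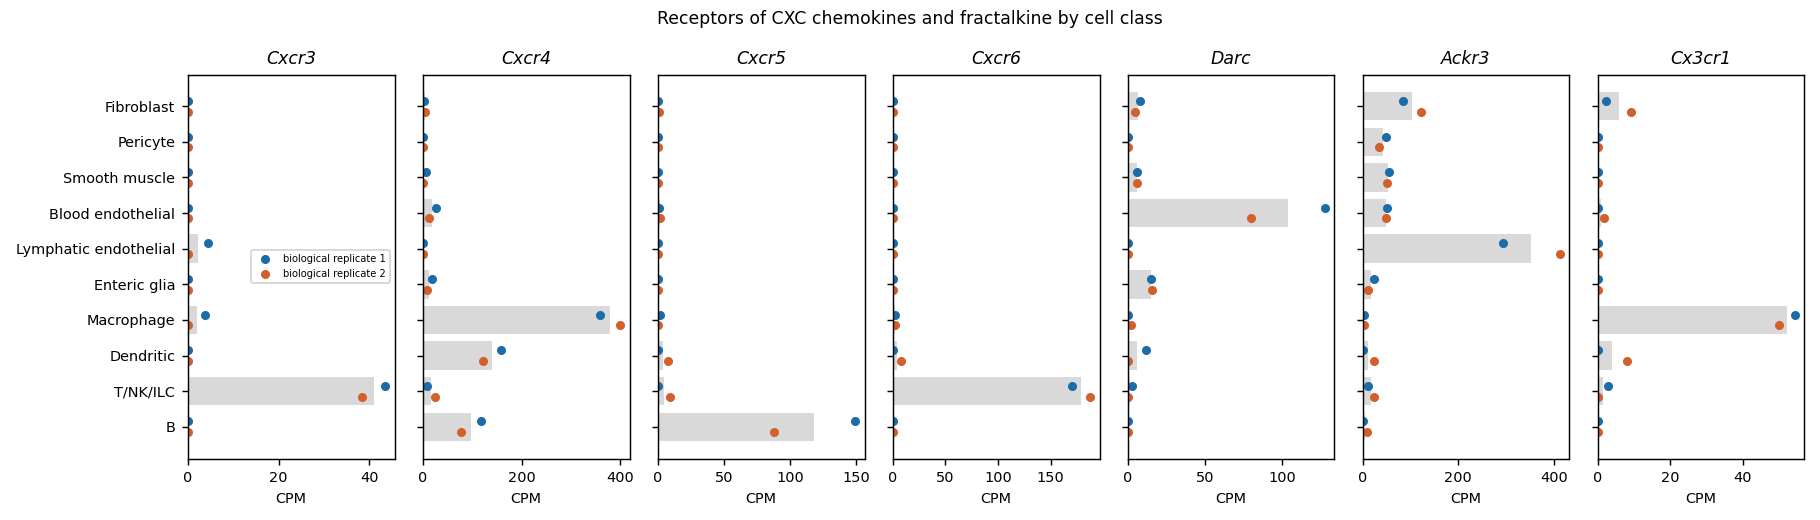
Levels (CPM, linear axis from 0) of 7 receptors in the 10 cell classes; points are the 2 biological replicates and bars their mean. Cxcr6 and Cxcr3 are seen in T/ILC-like cells, Cxcr5 in B-like cells, Cxcr4 and Cx3cr1 highest in macrophage-like cells, Darc in blood endothelial-like cells and Ackr3 in lymphatic endothelial-like and fibroblast-like cells.

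The tested genes whose levels over the 20 sums of class and replicate were most like each member (Pearson's r of log2(CPM + 1), a description) were Cebpb (0.90), Pmp22 (0.88) and Pdia4 (0.85) for Cxcl1, Gas2l3 (0.92), Cxcl3 (0.89) and Ccrl2 (0.87) for Cxcl2, and Azin1 (0.87), Cdc42ep4 (0.85) and Xbp1 (0.84) for Cxcl10. For Cxcl12 they were Csf1 (0.89), Serpinh1 (0.86) and Lamb1 (0.85), for Cxcl14 C1s (0.91), Podn (0.89) and Gstm2 (0.88), and for Cxcl16 Pirb (0.94), Clec4a2 (0.94) and Lgals3 (0.94). For the sparse Cxcl9 they were Gda (0.77), Mnda (0.74) and Arrdc4 (0.73). Cxcl3, another ligand of Cxcr2, was the second most like gene of Cxcl2. In single macrophage-like cells thinned to 500 UMIs, 192 of 205 cells with Cxcl1 also had Cxcl2 (93.7%), against 172 of 267 cells without it (64.4%), and in Saa3/Niacr1 fibroblasts 60 of 202 (29.7%), against 16 of 177 (9.04%).

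The cells that were summed had also defined the clusters, so p-values are smaller than independent cells would give. They rest on the scatter left between 2 biological replicates after the replicate block. That scatter was pooled over all groups of a fit, and its estimate drew on all genes. The mice are not described, so the p-values do not measure the spread between mice.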

How the data were processed

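The 5 Drop-seq collections were deposited as tables of raw UMI counts per gene and cell barcode. Per the submitters' processing notes, STAR 2.6 was the authors' aligner and mm10 their genome build. How genes were counted, and whether by strand, is not given in the sources used here. Barcodes with at least 300 genes and at most 10% mitochondrial UMIs were kept (6005 of 7935; 1263 had fewer genes and 667 more mitochondrial UMIs). Totals per collection and the median of 1331 UMIs per cell limit the precision for rare genes. Of all 7935 barcodes, 10 occurred in 2 collections.

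Retained cells were clustered with scanpy 1.11.5 and Leiden 0.10.2 (2000 variable genes, 30 components, 15 neighbours, resolution 1; 0.5 for subclusters), with the 8 members and the other listed genes (54 in all) kept out. Clusters were named by the marker list with the highest mean centred log2 level and at least 3 markers raised; a standardised level was planned first, and the rule was changed after the data were seen. Scrublet marked 23 cells (0.383%) as doublets, too few for the caller to have worked, and none were removed.

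For each biological replicate, UMI counts were added up over each class, state or subcluster with at least 20 cells in each replicate. Each was compared with the average log level of the others by the two-sided quasi-likelihood F test of edgeR 4.0.16 (filterByExpr, TMM, biological replicate as a block because both replicates gave cells to every class, Benjamini-Hochberg, calls at an adjusted p under 0.05). The test was checked on simulated counts. In the results, fold changes are given where every other group had a UMI. The alternatives were DESeq2 1.42.0, its size factors, no filter, no replicate block, sums per collection, other gene and mitochondrial limits, doublet removal, split UMIs, other clustering and leaving out each collection. All 8 members, the listed genes and the 3 genes most like each member could be named. The members and lists were chosen with earlier results of these data known. Promoters came from RefSeq (GRCm38.p6).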

Additional observations from a re-analysis of the deposited data

Results flagged for a closer look

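In 22 groups of 5 collections, 3 had a collection farther from the rest than Dixon's 95% limit; chance flags about 1 in 20 groups. Cxcl2 over all retained cells was at 1316 CPM in collection 2C, against 991 to 1078 CPM in the others. Cxcl9 over all retained cells was at 36.9 CPM in collection 2A, where 1 Saa3/Niacr1 cell held 36 UMIs. Cxcl9 in dendritic-like cells was at 303 CPM in collection 2C, where 1 cell held 15 UMIs.

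The 1930 barcodes left out by the limits on genes and mitochondrial UMIs also held member UMIs, above the 2.31 CPM that a count of 0 allows. Their levels were 434 CPM for Cxcl1, 480.0 CPM for Cxcl2, 3.85 CPM for Cxcl9, 118 CPM for Cxcl10, 233 CPM for Cxcl12, 43.8 CPM for Cxcl14 and 66.2 CPM for Cxcl16.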

How the results depend on the processing

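Over 74 pairs of a member and a class or state, 1408 alternative fits in up to 20 settings gave 1339 values with the same direction and call, 63 that lost the call and 6 that turned direction; 56 pairs kept both in every setting that gave a value. Values for Cxcl9 in dendritic-like cells are fitted log2 differences whose size depends on how the B-like class, with no UMI, is handled, and they are no measure of a fold. They fell below the threshold with the top 5% of doublet scores removed (0.77, adjusted p = 0.6), without collection 2C (0.61, 0.67) and without its richest cell (2.22, 0.15). Cxcl16 in Saa3/Niacr1 cells did so with DESeq2 (0.96, 0.13), at 200 genes (0.76, 0.055), with split UMIs (0.74, 0.18) and without collection 2A (0.79, 0.058). Directions turned for Cxcl10 in Has1/Pcolce2 cells at 20% mitochondrial UMIs (0.0725), and for Cxcl9 there at 500 genes (0.0357), 20% mitochondrial UMIs (0.24) and split UMIs (0.61). For Cxcl12 in Saa3/Niacr1 cells they turned at 5% mitochondrial UMIs (-0.26) and with states named by the standardised level (-0.36). The cause was not tested. The standardised level was the rule planned first, and it was replaced after the data were seen. Under it 4 states were tested, F3/Plau not among them, and 11 member and state pairs were called higher, against 16 in the main fit. Leaving out each collection gave 1.66 to 1.86 for Cxcl1, 1.95 to 2.37 for Cxcl2, 1.97 to 2.19 for Cxcl10 and 0.79 to 1.08 for Cxcl16 in Saa3/Niacr1 cells. It gave fitted values of 0.61 to 4.17, with the same limit, for Cxcl9 in dendritic-like cells, and 23 to 25 higher class pairs against 24. Cxcl9 in Saa3/Niacr1 cells gave 4.08 to 5.05, but only over fits where it passed the filter on low counts. It had a value in 15 alternatives of all kinds, against 20 for Cxcl1 there. Leaving out 2A leaves replicate 2 with collections 2B and 2C, at 0 and 19.0 CPM of Cxcl9, so the range is no measure of its stability. Without the replicate block, 24 class pairs were higher and 20 lower, against 24 and 21 with it. Of 14 shares of cells with a UMI, 13 moved outside their interval on thinning, so shares depend on depth.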
